A study of Homo sapiens with 12 samples.

Results

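The data described here are the response of empty-vector MDA-MB-468 cells to thyroid hormone. MDA-MB-468 is a human basal-like breast cancer cell line. The cells carried the control vector pCDH-EV, so their thyroid hormone receptors were their own. All cells spent 24 h in hormone-depleted medium without phenol red, containing charcoal-stripped serum. They then received triiodothyronine (T3, the active thyroid hormone) at 10 nM, or the NaOH vehicle, for 24 h. Libraries were chosen by their labels, 3 EV libraries with T3 and 3 EV libraries with vehicle, 6 of the 12 in the series. The other 6 came from cells with the vector pCDH-TRB, which adds thyroid hormone receptor beta, under the same 2 treatments, and are used only as the comparison. Each vector is represented by 1 line in the labels, which do not say whether it is a clone. Whether the libraries within a group stem from independent cultures is not given either, and the p-values below reflect library-to-library spread that may be purely technical.

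Thyroid hormone receptors are transcription factors encoded by THRA and THRB. They bind DNA, usually with a retinoid X receptor (RXR) as partner, at elements built from the hexamer AGGTCA. Without hormone they hold corepressor complexes built around NCOR1 and HDAC3 at their target genes, and T3 exchanges these for coactivators such as NCOA1 and the Mediator subunit MED1. In epithelial cells KLF9, which encodes a Krüppel-like transcription factor, is a well-known direct target, and genes can also fall under T3.

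Counts assigned to genes ranged from 4241863 to 7851876 with vehicle and from 10323437 to 11955825 with T3, without overlap. Protein-coding genes held 94.3% to 96.3% of counts with vehicle and 96.1% to 96.9% with T3. Mitochondrial ribosomal RNA held 0.326% to 2.68% with vehicle and 0.0502% to 0.0667% with T3. Both of its genes, 3 of 17 small nuclear RNAs and 3 of 42 small nucleolar RNAs were called lower with T3. Called higher were 1 small nucleolar RNA, 3 of 8 small Cajal body RNAs and 1 of 6 mitochondrial transfer RNAs. These RNAs are left out below. EV vehicle replicate 1 was the shallowest library and stood apart on the first principal component of the 6 libraries (34.1% of the variance), at -27.85 against -4.713 to 12.5 for the others. EV vehicle replicate 2 stood apart on component 2 (23.3%), at -21.71. All 11 basal-like epithelial markers, among them EGFR, KRT5, KRT17 and CDH1, passed the filter on low counts and summed to 12300 to 12600 CPM (counts scaled to a common library size) with vehicle and 11900 to 12200 CPM with T3. Thyroid follicular markers summed to at most 0.963 CPM, and TG and NKX2-1 had no count in any EV library. Fibroblast markers (17.4 to 17.7 CPM with vehicle and 16.2 to 17 CPM with T3, nearly all COL1A1) and endothelial markers (4.7 to 7.7 and 5.91 to 6.97 CPM) were low. Leukocyte markers summed to 32.2 to 38.5 CPM with vehicle and 56 to 59 CPM with T3, but CD3D, MS4A1, LYZ and FCGR3A were at 0. CD14, which encodes a lipopolysaccharide coreceptor, made up most of that sum and itself rose with T3 (log2 fold change 0.80, SE 0.073, edgeR adjusted p = 1.96e-13).

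The receptors themselves were present and did not pass the test for T3. THRB (chromosome 3, 24117153 to 24495756, hg38) stood at 43.6, 42.6 and 44.2 CPM in the 3 vehicle libraries and 39.9, 37.8 and 37.7 CPM in the 3 T3 libraries. All T3 values lay below all vehicle values, but the difference missed the threshold (log2 fold change -0.18, SE 0.069, edgeR adjusted p = 0.147). THRA (chromosome 17, 40058290 to 40093867) stood at 15.6, 14.2 and 14.4 CPM with vehicle and 14.2, 13.2 and 12.1 CPM with T3, with the highest T3 value just under the lowest vehicle value (log2 fold change -0.16, SE 0.12, edgeR adjusted p = 0.555). THRA overlaps the annotated span of NR1D1, so reads there may be shared. Gene lists, here and below, were chosen with earlier results of these data known, so their shares of calls are descriptive only. Of the 10 receptors, RXR partners and corepressor subunits tested, none passed, with a median log2 fold change of -0.11. The RXR genes RXRA and RXRB had values of -0.023 and 0.16, and the corepressor NCOR1 -0.12. Of 20 coactivators, HELZ2 rose and CREBBP, NCOA1 and MED1 fell (20% called, against 4.54% of all genes tested, 2.84% higher and 1.7% lower), and none of these 4 calls survived the removal of every single EV library in turn. With libraries given by group and replicate number and the highest adjusted p in parentheses, here and below, they were lost without EV vehicle 3 or EV T3 2 (up to 0.2096) for HELZ2, without EV vehicle 3 or EV T3 2 (up to 0.237) for CREBBP and without EV vehicle 1 or 3 or EV T3 1 or 2 (up to 0.226) for NCOA1.

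T3 changed few protein-coding genes, and most of them slightly. Of 12404 protein-coding genes tested 627 (5.05%) passed edgeR's quasi-likelihood test at an adjusted p below 0.05, of which 396 (3.19%) rose and 231 (1.86%) fell. A change of 2-fold or more was seen for 20 that rose (0.161%) and 2 that fell (0.0161%). The median change was 1.2-fold among genes that rose and 1.16-fold among those that fell, and 64.6% and 76.2% of them changed by less than 1.25-fold. Values in the 3 T3 libraries lay wholly above those in the 3 vehicle libraries for 1336 protein-coding genes (10.8%) and wholly below for 1340 (10.8%). Precision followed expression. Of 2514 genes at 100 CPM or more 10.1% were called, with changes as small as 1.09-fold, whereas of 2314 genes between 1 and 10 CPM 1.86% were called and the smallest called change was 1.39-fold. Of the 627 calls, 199 were kept whichever of the 6 EV libraries was left out, 147 of the genes that rose (37.1%) and 52 of those that fell (22.5%). Removing EV vehicle replicate 3 left 259 protein-coding calls, removing EV T3 replicate 2 left 324 and removing EV vehicle replicate 1 left 371. DESeq2 called 389.

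**Figure D1:**
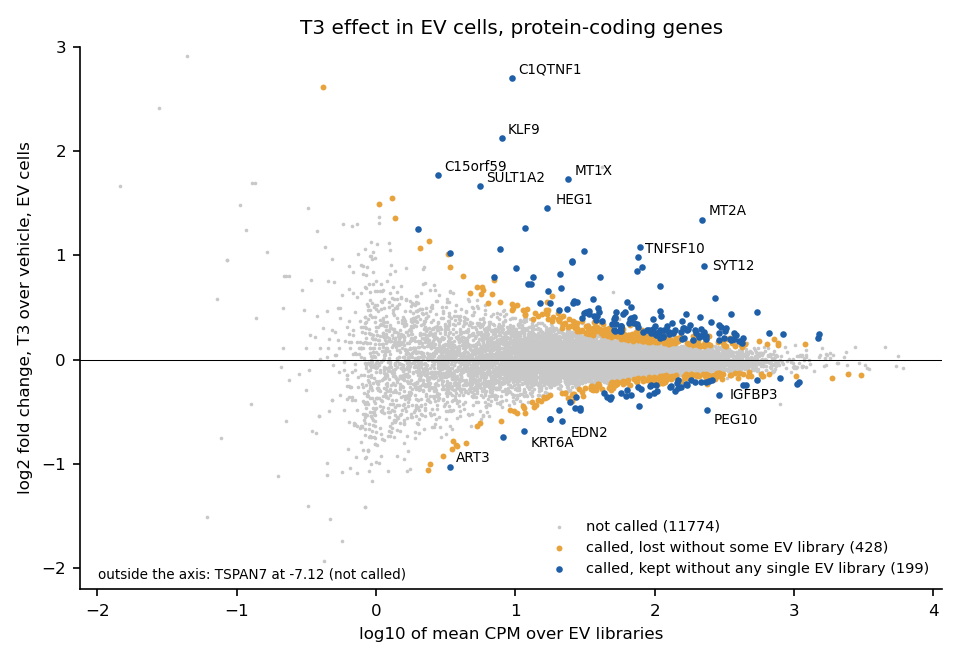
T3 effect in EV cells for each protein-coding gene, as the log2 fold change of T3 over vehicle (vertical axis) against the log10 of the mean CPM over the 6 EV libraries (horizontal axis). Blue points are the 199 genes whose call was kept whichever EV library was left out and orange points the other 428 called genes. C1QTNF1, KLF9 and C15orf59 lie highest among the blue points, and small changes were called only at high expression. TSPAN7, not called, lies outside the axis at -7.12.

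The largest change among called protein-coding genes belonged to C1QTNF1 (chromosome 17, 79022814 to 79049788), which encodes a secreted C1q/TNF-related protein. Its vehicle libraries read 1.203, 2.35 and 3.44 CPM and its T3 libraries 17.1, 17.8 and 15.3 CPM. The lowest T3 library lay well above the highest vehicle library, a change of 6.52-fold (log2 fold change 2.704, SE 0.17, edgeR adjusted p = 2.02e-20). KLF9 (chromosome 9, 70384597 to 70414624) read 2.41, 3.76 and 2.68 CPM with vehicle and 10.6, 14.4 and 14.02 CPM with T3. All 3 T3 libraries were above every vehicle library, and the fitted change was 4.36-fold (log2 fold change 2.13, SE 0.18, edgeR adjusted p = 5.67e-15). C15orf59 (chromosome 15, 73735431 to 73752747), also called INSYN1 and known as an inhibitory synapse protein, went from 1.68, 1.096 and 1.15 CPM to 4.24, 4.52 and 4.15 CPM, with no overlap (log2 fold change 1.77, SE 0.27, edgeR adjusted p = 2.59e-06). SULT1A2 (chromosome 16, 28591943 to 28597109), a phenol sulfotransferase that has the close copies SULT1A1 and SULT1A3, with which reads may be shared, rose by 1.67 (SE 0.21, edgeR adjusted p = 7.97e-09). HEG1 (chromosome 3, 124965710 to 125055958), a transmembrane receptor of endothelial junctions, read 8.18, 8.61 and 9.94 CPM with vehicle and 24.9, 23.3 and 26.4 CPM with T3, again without overlap (log2 fold change 1.45, SE 0.11, edgeR adjusted p = 2.66e-16). PRSS27, a membrane-bound serine protease, went from 6.73 ± 1.05 to 16.7 ± 2.43 CPM (SD, n = 3), and ZSWIM4 from 50.9 ± 3.07 to 107 ± 0.804 CPM. The log2 fold changes were 1.27 and 1.08 (edgeR adjusted p = 3.48e-10 and 3.57e-24).

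The smallest p-values included other genes with changes below 2-fold. SYT12 (chromosome 11, 67006778 to 67050863), which encodes a synaptotagmin, read 156, 163 and 157 CPM with vehicle and 293, 307 and 285 CPM with T3. The spread within each group was small beside the gap between them (log2 fold change 0.90, SE 0.043, edgeR adjusted p = 4.51e-27). TNFSF10 (chromosome 3, 172505508 to 172523507), the gene of the death ligand TRAIL, read 57.03, 48.99 and 49.05 CPM and 99.8, 107 and 96.9 CPM (log2 fold change 0.99, SE 0.058, edgeR adjusted p = 2.64e-22). LGALS8, which encodes the lectin galectin 8 and overlaps HEATR1, rose by 0.89 on the log2 scale, and TP53INP2, an autophagy protein and nuclear receptor coactivator whose span overlaps NCOA6, by 0.71 (edgeR adjusted p = 2.02e-20 and 3.37e-18). Of the 16 largest rises of genes with 1 CPM or more and no overlap between groups, 11 were kept whichever EV library was left out. The exceptions were C7orf55, also called FMC1, which shares its locus with LUC7L2, FAM131B, FSTL4, PAGR1 and MYCN, all low, with T3 means of 1.55 to 3.34 CPM. Their log2 fold changes were 1.56, 1.498, 1.36, 1.14 and 1.07. The call was lost without EV vehicle 2 or 3 or EV T3 2 (up to 0.135) for C7orf55, without any 1 of the EV vehicle libraries or EV T3 3 (up to 0.2103) for FAM131B and without EV vehicle 2 or 3 or EV T3 2 or 3 (up to 0.139) for FSTL4. For PAGR1 it was lost without EV vehicle 2 (up to 0.0696) and for MYCN, a MYC family transcription factor, without EV vehicle 1 or 2 or EV T3 1 or 2 (up to 0.115). DESeq2 gave no adjusted p for C7orf55, FAM131B and PAGR1, and FSTL4 and MYCN missed its threshold (DESeq2 adjusted p = 0.065 and 0.0512).

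**Figure D2:**
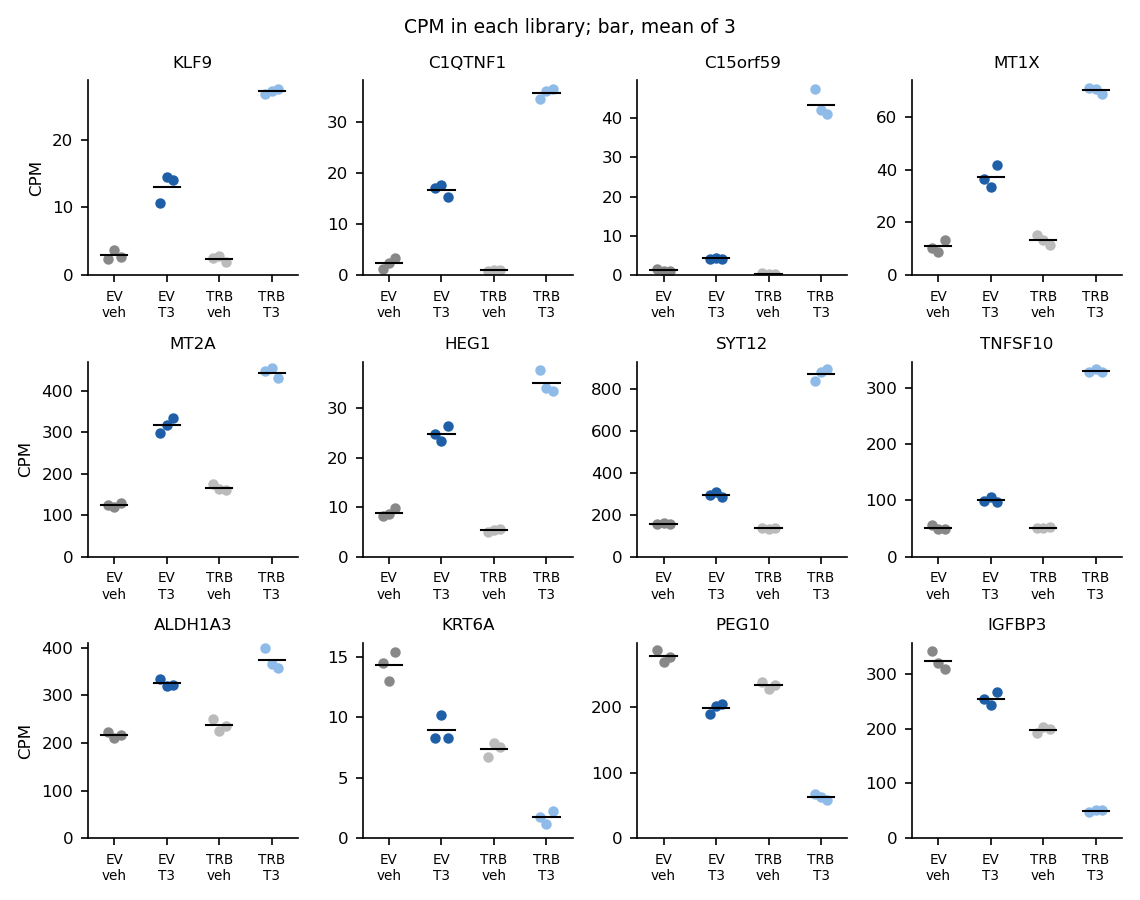
CPM of 12 genes in each of the 12 libraries, by vector and treatment, with a bar at the mean of 3. In EV cells the T3 points of KLF9, C1QTNF1, MT2A and TNFSF10 all lie above the vehicle points and those of KRT6A, PEG10 and IGFBP3 all below. ALDH1A3 and MT2A have nearly the same fold change, though not the same step in CPM, in both cell lines.

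The hexamer AGGTCA, the core of a thyroid hormone response element, was searched in RefSeq promoters (GRCh38.p14, 250 bases before to 50 after the first listed start) on both strands. The gene spans given in the text are from GENCODE, and their ends can differ from the RefSeq starts, as for C15orf59. A promoter was listed for 9893 of the 12404 protein-coding genes tested, and 9.83% of these held the hexamer. It stood in 35 of 283 promoters of genes that rose (12.4%) and in 11 of 179 of genes that fell (6.15%). Over all 27305 listed promoters, of tested genes or not, the share was 13.9%. Among calls kept whichever EV library was left out the counts were 13 of 103 (12.6%) and 1 of 37 (2.7%). The longer element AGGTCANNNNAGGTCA, a direct repeat spaced by 4 bases, was found in none of the 9893. The listed promoter of KLF9 held no match. Not all of the 31 kept genes that rose by 1.5-fold or more were searched. MT1F, for example, had no listed promoter, and some genes were left out of this search whether or not a promoter was listed. Genes that were not searched may hold the hexamer before the start. It was found there in 2 of the 31, C15orf59 and PRSS27. They are shown 5′ to 3′ on the strand of the gene with the hexamer in capitals, which begins 160 bases before the start in C15orf59 (chr15:73753484-73753533, minus strand) and 137 bases before it in PRSS27 (chr16:2720334-2720383, minus strand).
C15orf59: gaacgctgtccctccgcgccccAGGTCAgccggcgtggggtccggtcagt
PRSS27: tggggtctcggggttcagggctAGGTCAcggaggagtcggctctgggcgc
A match describes the letters only, and binding was not measured.

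Metallothioneins, small cysteine-rich proteins that bind zinc and copper, were among the rises. Of 10 metallothionein and zinc transport genes tested 5 rose (50%, against 2.84% of all genes tested) and none fell. MT2A (chromosome 16, 56608199 to 56609497) had the smallest p of all protein-coding genes. It read 124, 121 and 129 CPM with vehicle and 298, 318 and 333 CPM with T3, so the 2 groups were far apart and tight (log2 fold change 1.34, SE 0.045, edgeR adjusted p = 4.75e-36). MT1X read 10.4, 8.92 and 13.5 CPM with vehicle and 36.3, 33.5 and 41.7 CPM with T3 (log2 fold change 1.74, SE 0.11, edgeR adjusted p = 2.92e-18). MT1F went from 4.92 ± 1.05 to 10.6 ± 1.497 CPM (SD, n = 3), a log2 fold change of 1.06, and these 3 calls were kept whichever EV library was left out. MT1E (0.70) and the zinc importer SLC39A1 (0.14) were each lost without some library, with leave-one-out adjusted p up to 0.0908 and 0.5195. The MT1 genes and MT2A are close copies, so reads may be split among them. The 150 bases before the RefSeq start of MT2A (chr16:56608434-56608583, plus strand) and MT1X (chr16:56682320-56682469, plus strand) are shown because these neighbours rose together. Both starts lie inside the GENCODE spans of the genes. MT1E and MT1F, which rose beside them, had no listed promoter. Capitals mark matches on either strand to TGCACNC or TGCGCNC, the core of the metal response element.
MT2A: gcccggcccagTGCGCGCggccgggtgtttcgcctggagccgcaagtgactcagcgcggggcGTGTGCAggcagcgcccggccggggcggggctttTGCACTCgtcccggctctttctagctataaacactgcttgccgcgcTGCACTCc
MT1X: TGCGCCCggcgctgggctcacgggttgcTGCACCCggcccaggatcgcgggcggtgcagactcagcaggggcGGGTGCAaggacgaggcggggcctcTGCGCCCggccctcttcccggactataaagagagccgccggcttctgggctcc
Each holds 4 matches. In the same window 24.4% of the 9893 promoters held at least 1 match and 1.08% held 3 or more. Among genes that rose the shares were 26.5% and 1.06%, and among the kept rises 18.4% and 1.94%.

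Among 27 genes known to respond to thyroid hormone 9 rose and 2 fell (40.7% called, against 4.54% of all genes tested), and 7 of the rises were kept whichever EV library was left out. The median log2 fold change was 0.13, against -0.00074 over all genes tested. This list, which holds TNFSF10, was also chosen with earlier results of these data known. Beside KLF9 and TNFSF10, the mitochondrial carrier UCP2 rose by 0.36, the glycolytic regulator PFKFB3 by 0.46 and the clock output factor DBP by 0.69 (edgeR adjusted p = 1.02e-09, 2.16e-07 and 1.99e-06). DBP read 20.4, 16.1 and 13.6 CPM with vehicle and 26.5, 27.5 and 24.2 CPM with T3, and overlaps SPHK2. CCND1 (cyclin D1) and the hypoxia factor HIF1A rose by 0.21 and 0.19. FASN (fatty acid synthase) was called lower, with a log2 fold change of -0.14, a call that was lost without any 1 of the EV vehicle libraries or EV T3 2 or 3 (up to 0.337). Several classical targets did not pass in EV cells. HR, the hairless corepressor gene, read 88.3, 86.7 and 87.4 CPM with vehicle and 95.9, 97.7 and 94.6 CPM with T3. The groups did not overlap, but the step was small (log2 fold change 0.14, SE 0.052, edgeR adjusted p = 0.135). THRSP, a lipogenic gene, had 1, 1 and 2 counts with vehicle and 5, 10 and 3 with T3 (edgeR adjusted p = 0.385). The deiodinase gene DIO1, with 11 counts in the whole series, was too low to test.

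Death receptor genes moved only in part. Of 19 TRAIL and death receptor genes TNFSF10 and its receptor TNFRSF10A rose and none fell (10.5% called, against 4.54% of all genes tested). TNFRSF10A rose by 0.44 (edgeR adjusted p = 0.00867) and lost its call without EV vehicle 1 or 3 or EV T3 2 (up to 0.1698). Of 16 BCL2 family genes the BH3-only gene BMF alone passed (6.25%, near the share of all genes), at 0.55, and it missed the threshold without EV vehicle 3 (up to 0.0771).

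Genes of antigen presentation and the interferon gamma response were called higher in part. Of 26 tested 12 rose (46.2%, against 2.84% of all genes tested), 14 did not pass and none fell, 7 of the 12 were kept whichever EV library was left out, and the median log2 fold change was 0.16. IRF1 (chromosome 5, 132481609 to 132490798), the transcription factor that drives MHC class I genes, read 54.1, 59.3 and 54.02 CPM with vehicle and 78.7, 81.2 and 77.6 CPM with T3. No vehicle library reached any T3 library (log2 fold change 0.50, SE 0.058, edgeR adjusted p = 9.50e-10). The heavy chain genes HLA-B and HLA-C rose by 0.27 and 0.24, and as HLA genes are close copies their counts may be shared. The immunoproteasome subunits PSMB8 and PSMB9, which overlap each other, rose by 0.33 and 0.47, the peptide transporter subunit TAP1 by 0.23 and its partner TAPBP by 0.16. GBP1, PSMB10, GBP3, PSME2 and TAP2 rose too but lost the call without some library. Of 44 type I interferon response genes 6 rose (13.6%), of which IFIT3 (0.44) and LGALS3BP (0.17) were kept. XAF1 (0.61) was lost without EV vehicle 3 (up to 0.06398). Of 19 NF-kB subunits and targets 4 rose (21.1%, against 2.84% of all genes tested) and none fell, but the median log2 fold change was -0.017. The macrophage growth factor CSF1 (0.59, edgeR adjusted p = 1.22e-07) and TNFAIP2 (0.31, 1.90e-07) led. Only these 2 of the 4 were kept whichever EV library was left out. CSF1 read 25.03, 30.4 and 30.6 CPM with vehicle and 43.2, 44.5 and 43.7 CPM with T3. CSF1R, the receptor of CSF1 and itself a leukocyte marker, stood at 3.6 to 5.89 CPM in the 6 EV libraries and did not pass (0.43, edgeR adjusted p = 0.213).

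Most falls were small. PEG10 (chromosome 7, 94656325 to 94669695), an imprinted gene derived from a retrotransposon that overlaps SGCE, had the smallest p among falls. It read 287, 270 and 277 CPM with vehicle and 189, 202 and 206 CPM with T3. Every T3 library lay below every vehicle library (log2 fold change -0.48, SE 0.042, edgeR adjusted p = 3.78e-14). IGFBP3 (chromosome 7, 45912245 to 45921874), a secreted binding protein of insulin-like growth factors, read 342, 320 and 309 CPM and 254, 243 and 266 CPM (log2 fold change -0.34, SE 0.041, edgeR adjusted p = 2.95e-09). EDN2 (endothelin 2) read 26.95, 27.1 and 24.6 CPM and 17.9, 19.2 and 15.01 CPM, SLITRK6 8.904, 12.2 and 9.43 CPM and 6.36, 6.003 and 6.05 CPM, and ART3 4.33, 5.32 and 4.08 CPM and 2.31, 1.91 and 2.49 CPM. The groups were separate for all 3, with log2 fold changes of -0.59, -0.74 and -1.02 (edgeR adjusted p = 1.60e-05, 6.35e-04 and 0.00308), although DESeq2 gave no adjusted p for ART3. ARG2, the mitochondrial arginase, fell by 0.57 and missed the threshold with counts thinned to equal depth. CMYA5 (-0.44), KIAA1324 (-0.30), the claudin CLDN10 (-0.31), PLP2 (-0.30) and the sialic acid synthesis enzyme GNE (-0.24) completed the 8 smallest p-values. Of the 16 largest falls only ART3, SLITRK6, KRT6A, EDN2 and ARG2 were kept whichever EV library was left out. The other 11 were KRT75, ROS1, ITGA2B, LOX, OLFML2A, MAP7D2, MUC5B, NLGN3, DEFB1, OBP2B and SLC4A4, with log2 fold changes from -1.06 (KRT75) to -0.59 (SLC4A4). SLC4A4 was lost without EV vehicle 3 (up to 0.0955) and OLFML2A without EV vehicle 3 or EV T3 2 (up to 0.2497), while DEFB1 was lost whichever EV library was left out (up to 0.116).

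Some basal epithelial genes fell. Of 26 basal and stress keratins and basal markers 8 fell (30.8%, against 1.7% of all genes tested), 18 did not pass and none rose, with a median log2 fold change of -0.069, and 5 of the falls were kept whichever EV library was left out. KRT6A (chromosome 12, 52487174 to 52493257), a keratin induced by stress, read 14.4, 12.99 and 15.4 CPM with vehicle and 8.29, 10.2 and 8.29 CPM with T3. The groups were separate, but the level is low (log2 fold change -0.68, SE 0.14, edgeR adjusted p = 4.15e-04). KRT6B, its near-identical neighbour, was at -0.46, and reads may be shared between them. KRT5, the main basal keratin, read 1155, 1160 and 1161 CPM and 988, 1019 and 991 CPM, a small and regular step (log2 fold change -0.21, SE 0.049, edgeR adjusted p = 0.00526). The hemidesmosome integrin ITGB4 fell by 0.26 and the transcription factor SOX9 by 0.21. Among 22 luminal markers (18.2% called, against 4.54% of all genes tested) CD24 (0.25) and CLDN7 (0.25) rose, and AGR2 (-0.38) and MUC1 fell, MUC1 without keeping its call whichever EV library was left out. Of 25 cell junction genes (32% called) CLDN7, F11R (0.28) and PKP3 rose, and CLDN1 (-0.29), DSP, JUP, TJP1 and DSC2 fell. Only CLDN7, F11R and CLDN1 of these were kept whichever EV library was left out.

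Most cell cycle genes that were called changed by small amounts, with larger changes for RFC3 and CDKN1A. Of 50 mitosis genes 6 fell (12%, against 1.7% of all genes tested) and none rose, with a median log2 fold change of -0.076, and only MKI67, the proliferation marker, was kept. MKI67 read 597, 559 and 577 CPM with vehicle and 533, 482 and 500 CPM with T3. The groups did not overlap, and the step was small (log2 fold change -0.19, SE 0.04, edgeR adjusted p = 5.95e-04). NUSAP1 and ANLN lost their calls without EV vehicle 1 or 3 or EV T3 2 (up to 0.0722) and without EV vehicle 1 or 3 or EV T3 1 or 2 (up to 0.166). Of 46 DNA replication genes 2 were called (4.35%, near the 4.54% of all genes tested). The clamp loader subunit RFC3 rose, from 51.8 ± 1.196 to 75.8 ± 5.26 CPM (SD, n = 3; log2 fold change 0.55, SE 0.066, edgeR adjusted p = 4.56e-09), and E2F1 (0.18) passed but lost its call whichever EV library was left out (up to 0.217). Of 19 G1 cyclins and CDK inhibitors (21.1% called) CCND1, CCND3 and E2F1 rose, CCND3 (0.23) losing its call without some EV library (up to 0.0636), and the CDK inhibitor CDKN1A (p21) fell, from 21.3 ± 2.39 to 14.4 ± 0.946 CPM (log2 fold change -0.57, SE 0.11, edgeR adjusted p = 1.83e-04). Its 3 T3 libraries, 14.2, 13.6 and 15.4 CPM, all lay below the vehicle libraries, 22.1, 18.6 and 23.2 CPM. Of 32 immediate early and ERK feedback genes (15.6% called) IER5 (0.34), IER2 (0.29), IER3 (0.27) and the phosphatase DUSP4 rose and were kept, and BTG1 fell but lost its call without some EV library (up to 0.331). Of 17 Krüppel-like and SP factors (23.5% called, against 4.54% of all genes tested) KLF9 and KLF13 (0.32) rose, and KLF5 (-0.22) and SP1 fell. SP1 lost its call without some EV library.

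**Figure D3:**
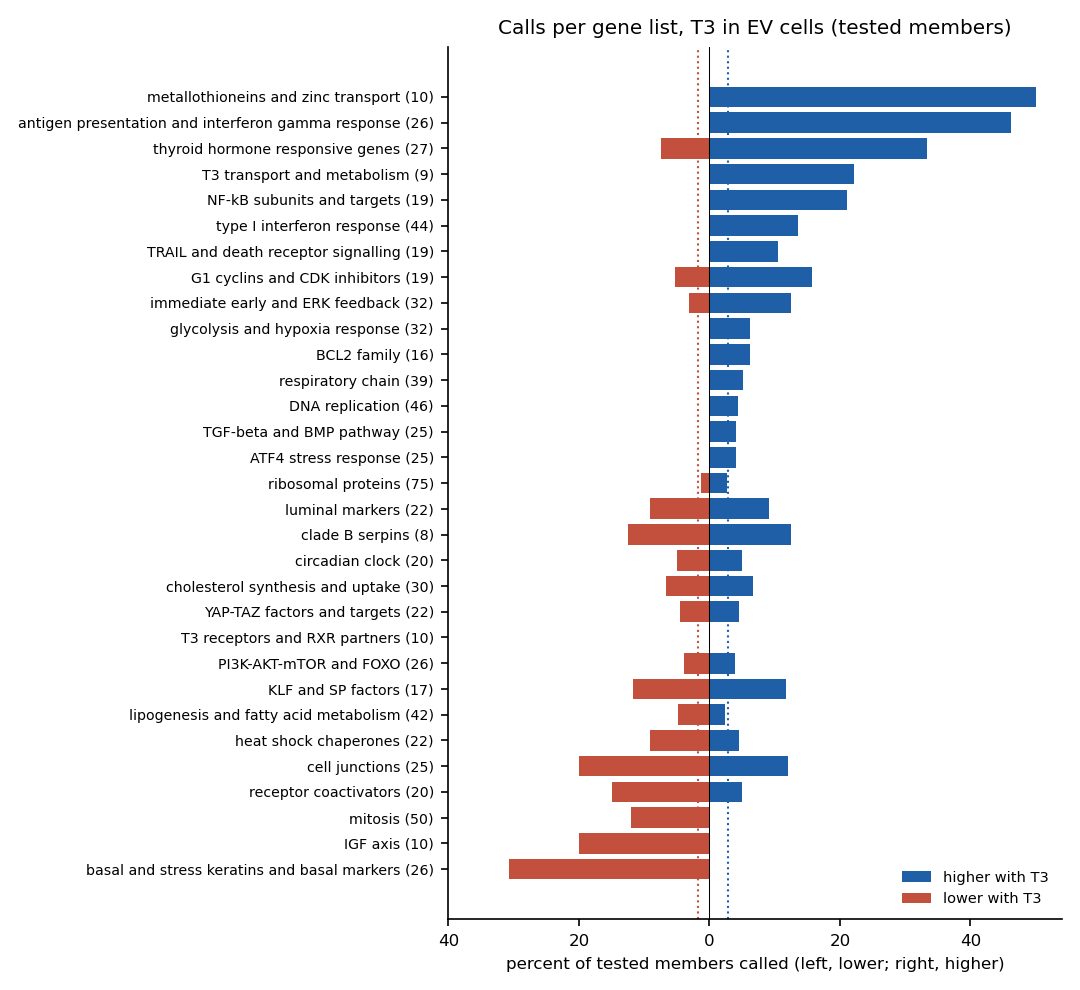
Percent of the tested members of each gene list that were called higher (blue, right) or lower (red, left) with T3 in EV cells, with the number tested in parentheses and dotted lines at the share of all genes tested (2.84% and 1.7%). Metallothioneins, antigen presentation genes and thyroid hormone responsive genes lie farthest to the right and basal markers farthest to the left.

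Several metabolic lists were called at shares near that of all genes. Of 39 respiratory chain genes 2 rose (5.13% called), of 75 ribosomal protein genes 2 rose and 1 fell (4%), and of 25 genes of the ATF4 stress response 1 rose (4%), against 4.54% of all genes tested. All 13 mitochondrially encoded protein genes were tested and none was called, although mitochondrial ribosomal RNA was lower in T3 libraries. Of 42 lipogenesis genes (7.14% called) the monoacylglycerol lipase MGLL rose and was kept (0.41, edgeR adjusted p = 2.74e-07), and FASN and the ATP citrate lyase gene ACLY (-0.12) fell and were not kept. Of 30 cholesterol genes (13.3% called, above the 4.54%) HMGCS1 (-0.16) and FDFT1 fell, MVD (0.17) and MSMO1 rose, and none was kept whichever EV library was left out. HMGCS1 was lost without EV vehicle 1 or 3 or EV T3 1 (up to 0.122) and MVD without EV vehicle 1 or 3 or EV T3 2 (up to 0.263). Single kept calls in other lists were the inhibitor of differentiation ID4 (0.44), the YAP paralog gene WWTR1 (0.35) and the serpin SERPINB1 (0.44). FOXO6 (0.37) and the PI3K regulatory subunit PIK3R1 (-0.25) were others.

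Some genes that changed together lie side by side. In 8 places 3 or more consecutive tested protein-coding genes were called in the same direction, a count that was looked at after the values were seen. On chromosome 16 (56608199 to 56684196) these were MT2A, MT1E, MT1F and MT1X, and on chromosome 12 (52424070 to 52520687) the keratins KRT75, KRT6B, KRT6A and KRT5, all lower. On chromosome 6 (32821833 to 32859585) TAP2, PSMB8, PSMB9 and TAP1 rose, and on chromosome 19 (50958631 to 51002711) the kallikrein proteases KLK6 (0.29), KLK7 (1.25) and KLK8 (1.02). KLK8 read 2.17, 1.72 and 2.803 CPM with vehicle and 3.86, 4.96 and 5.06 CPM with T3, so the groups were separate at a low level. On chromosome 11 (66848233 to 67050863) PC, the pyruvate carboxylase gene (0.39), LRFN4, C11orf86 and SYT12 rose. On chromosome 17 (78971238 to 79088599) LGALS3BP, CANT1 (0.29), C1QTNF1 and ENGASE rose, and on chromosome 3 (124761948 to 125212864) the integrin ITGB5 (0.37), HEG1 and SLC12A8 (0.55). The eighth was the apolipoprotein L genes APOL3, APOL2 and APOL1 on chromosome 22 (0.36, 0.29 and 0.42). LRFN4, C11orf86, KRT75, MT1E, ENGASE, APOL3, APOL2 and TAP2 each lost the call without some EV library, at adjusted p of up to 0.323, 0.3503, 0.172, 0.0908, 0.085, 0.155, 0.187 and 0.212.

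The same treatment was tested in separate libraries of TRB cells, where 47.8% of protein-coding genes tested were called, 23.4% higher and 24.4% lower. Of the 627 genes called in EV cells, 325 (51.8%) changed in the same direction in TRB cells by a larger amount, with the difference of the T3 effects itself called (26.4% of protein-coding genes, 13.3% more positive and 13.1% more negative in TRB cells). A further 184 (29.3%) changed in the same direction with no called difference. None changed in the same direction by a smaller amount with a called difference. Mitochondrial ribosomal RNA was lower and depth greater in the T3 libraries of both lines, and their part in the shared changes was not tested. KLF9 rose by 2.13 in EV cells and 3.45 in TRB cells, a difference of 1.32 (edgeR adjusted p = 2.76e-04). C15orf59 was at 1.77 and 6.52, and SLITRK6 at -0.74 and -4.09. HR, which missed the threshold in EV cells, rose by 1.83 in TRB cells (difference 1.697, edgeR adjusted p = 5.84e-31).

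A few EV responses were matched in size. Of the 63 protein-coding genes that changed by 1.5-fold or more in EV cells, 3 had a 95% interval of the difference wholly within 1.25-fold. They were MT2A (1.34 in EV and 1.41 in TRB cells), the retinaldehyde dehydrogenase ALDH1A3 (0.59 and 0.66) and the calmodulin-like skin protein gene CALML5 (0.86 and 0.96). ALDH1A3 (chromosome 15, 100877714 to 100916626) read 223, 210 and 216 CPM in EV vehicle libraries and 334, 320 and 321 CPM in EV T3 libraries, a clear separation (log2 fold change 0.59, SE 0.043, edgeR adjusted p = 1.40e-17). In TRB cells it went from 238 ± 12.7 to 374 ± 23.1 CPM (SD, n = 3). The interval of the difference was -0.052 to 0.19 for ALDH1A3 and -0.055 to 0.19 for MT2A.

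Other EV calls were absent or opposite in TRB cells. In 38 cases (6.06%) the gene was not called in TRB cells and the difference was, and in 19 (3.03%) it was called in the opposite direction. Of these genes 3 had an EV call that was kept whichever EV library was left out. The replication-dependent histone gene HIST1H4A read 31.8, 35.7 and 33.5 CPM with vehicle and 44.7, 51.4 and 43.2 CPM with T3 in EV cells, and in TRB cells it had a log2 fold change of -0.15 (edgeR adjusted p = 0.0737). HIST1H4E was at 0.26 in EV and -0.25 in TRB cells (difference -0.51, edgeR adjusted p = 2.24e-09). HDDC2 was at -0.36 and -0.067. Histone H4 genes are close copies and their transcripts mostly lack poly(A) tails, so their counts are uncertain. RASD2 was at -0.49 in EV and 1.37 in TRB cells, but its EV call was lost without some EV library (up to 0.08596). These genes were chosen after their values were seen.

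**Figure D4:**
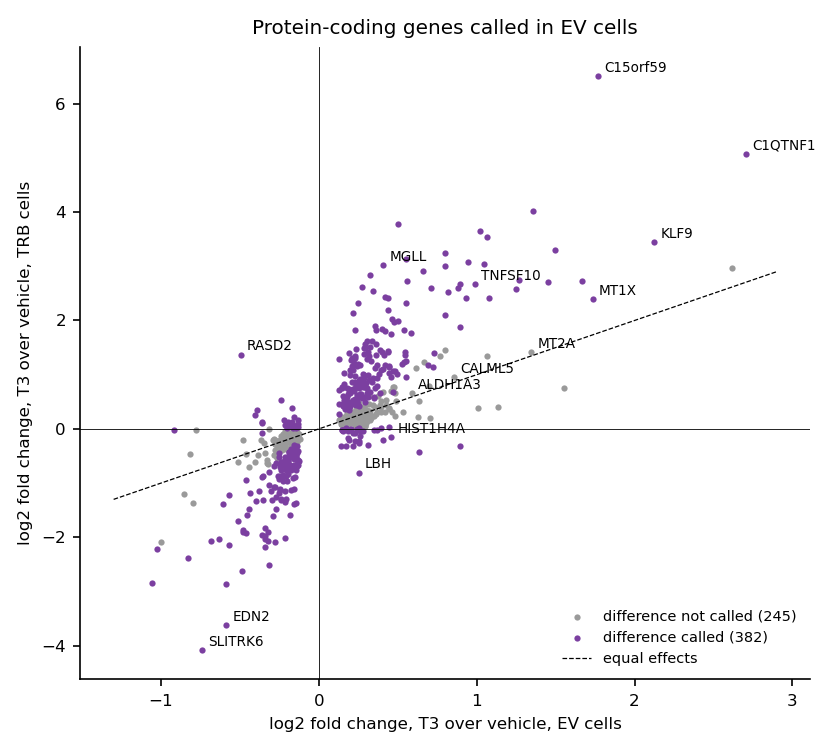
Log2 fold change of T3 over vehicle in TRB cells (vertical axis) against EV cells (horizontal axis) for the 627 protein-coding genes called in EV cells, with a dashed line of equal effects. Purple points (382) had a called difference between the lines and grey points (245) did not. Most purple points lie farther from 0 in TRB cells, while MT2A, ALDH1A3 and CALML5 lie near the line.

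Calls in EV cells differed in transcript length and GC content. Genes that rose had a median longest transcript of 3190 bases and a median GC content of 56.8%, genes that fell 5300 bases and 46.1%, and all protein-coding genes tested 3720 bases and 48.3%. With genes in 4 equal bins by length, 134 rose and 38 fell in the shortest bin, and 53 rose and 111 fell in the longest. The median log2 fold change of all genes in these bins was 0.03 and -0.035 in EV cells, and -0.043 and 0.0072 in TRB cells. Among calls kept whichever EV library was left out the medians were 3620 and 4340 bases, and 56.1% and 47.1% GC. With the GC trend removed 341 protein-coding genes rose and 274 fell, so the share of calls that rose went from 63.2% to 55.4%. Of these calls, 486 were among the 627 of the main fit with the same direction. With the length trend removed, an alternative added after seeing the data, 363 rose and 218 fell (62.5%), and when low genes were not filtered out 388 went up and 113 down (77.4%).

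**Figure D5:**
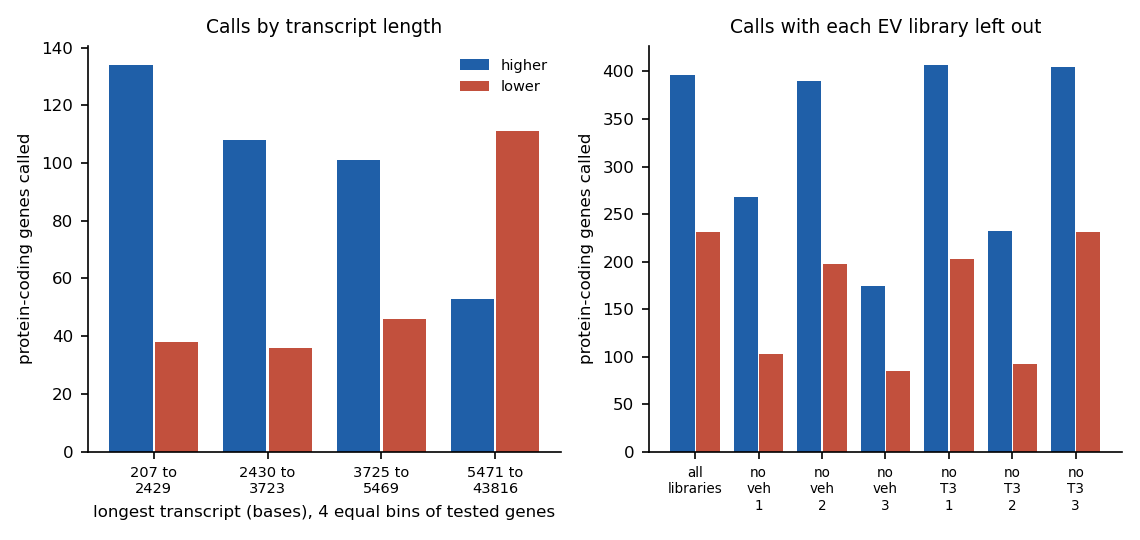
Protein-coding genes called higher (blue) or lower (red) with T3 in EV cells, in 4 equal bins of longest transcript length in bases (left) and with each EV library left out in turn (right). In the shortest bin 134 genes are higher and 38 lower, and the count of calls is smallest, at 174 and 85, without EV vehicle replicate 3.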

How the data were processed

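RNA sequencing of MDA-MB-468 cells was used, 3 libraries for each vector and treatment. RNA was extracted with Trizol and made into libraries by an NEBNext Ultra II kit, per the labels' protocols. The submitters' processing notes name hg38 as the build, and STAR 2.7, HTSeq 0.10, CASAVA 1.7 and DESeq2 as tools. Ribosomal RNA removal and the strand setting are not given in the sources used here, which leaves overlapping genes uncertain. Counts per gene, as the authors deposited them for each library, were the only values used. Lines that name no gene held 31.87% to 39.24% of alignments and were left out.

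Tests used edgeR 4.0.16 (limma 3.58.1, R 4.3.3): filterByExpr (10 counts, 15 in total), TMM, robust quasi-likelihood fit of 4 group means on 12 libraries (8 residual degrees of freedom) and Benjamini-Hochberg adjustment over 14549 genes, called below 0.05. CPM are scaled by TMM, and each SE was obtained by dividing the log2 fold change by the square root of its F statistic. The steps were tested on simulated counts. Genes were matched by name to GENCODE v29, 29681 of 56832 names by symbol and 879 by an older symbol, and 1610 tested names without a match were not counted as protein-coding. Pairs of EV libraries within a group differed beyond counting noise (chi-square per degree of freedom 2.43 to 10.9), so none was a repeat.

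Named genes were THRA, THRB, KLF9, HR, TNFSF10, THRSP and DIO1; among called protein-coding genes at 1 CPM or more with no overlap between groups, the 16 largest rises and falls and the 8 smallest p in each direction; and up to 3 called members of each list with the smallest p. Others named were chosen after their values were seen, and some list members are not reported here by name. The genes, lists and tests were chosen with earlier results of these data known. Alternatives were DESeq2 1.42.0, RLE, no filter, EV libraries alone, the replicate block, thinning, protein-coding genes only, GC and length trends removed, and each EV library left out.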

Additional observations from a re-analysis of the deposited data

Results flagged for a closer look

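The T3 effect differed between the lines for the named genes below. The difference itself (effect in TRB cells minus that in EV cells, log2) was tested as an interaction in edgeR's quasi-likelihood fit, and its adjusted p was below 0.05 for each. The lines were not separated from any difference in handling of their libraries.

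Among genes that rose with T3 in EV cells, the effect was more positive in TRB cells. Not all of these EV calls were kept whichever EV library was left out. CEBPB, SULT1A1 and BCL3, for example, reached leave-one-out edgeR adjusted p of 0.198, 0.17 and 0.0615. The largest such differences were C15orf59 4.74, FSTL4 2.67, MGLL 2.62, BMF 2.58, MYCN 2.47, C1QTNF1 2.37, SERPINB1 1.97, TP53INP2 1.89, FAM131B 1.81, SYT12 1.77, TNFSF10 1.68 and PFKFB3 1.57. Those next in size were IRF1 1.49, PRSS27 1.48, ZSWIM4 1.35, KLK7 1.32, KLF9 1.32, HEG1 1.25, HIF1A 1.200, UCP2 1.196, SULT1A1 1.18, CSF1 1.17, TNFAIP2 1.11 and CCND1 1.09. Smaller ones were BCL3 1.08, SULT1A2 1.05, LGALS8 0.99, TNFRSF10A 0.98, IFIT3 0.71, MT1X 0.65, KLF13 0.59, FOXO6 0.58, HLA-B 0.54, IER5 0.54, CD24 0.52 and DBP 0.49. The smallest were RFC3 0.40, IER3 0.37, PSMB8 0.35, CLDN7 0.33, CEBPB 0.28, LGALS3BP 0.27, WWTR1 0.23 and IER2 0.21.

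Among genes that fell with T3 in EV cells, the effect was more negative in TRB cells. Here too some EV calls were lost without some EV library. CRYAB, FDFT1, IRS2 and HSPB1, for example, reached leave-one-out edgeR adjusted p of 0.238, 0.151, 0.122 and 0.0516. Differences were largest for SLITRK6 -3.34, EDN2 -3.03, SLC4A4 -2.27, KRT75 -1.79, IGFBP3 -1.64, ARG2 -1.58, OLFML2A -1.56, PEG10 -1.41, HSPB1 -1.402, DEFB1 -1.39, KRT6A -1.38 and CLDN1 -1.32. They were intermediate for ART3 -1.200, GNE -1.07, CRYAB -1.05, CMYA5 -1.03, KIAA1324 -1.02, PIK3R1 -0.88, PLP2 -0.85, AGR2 -0.78, OBP2B -0.77, HMGCS1 -0.75, SOX9 -0.67 and CDKN1A -0.65. They were smallest for ITGB4 -0.62, FDFT1 -0.53, CLDN10 -0.47, ANLN -0.43, IRS2 -0.40, KLF5 -0.36, NUSAP1 -0.23 and NCOA1 -0.20.

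The difference had the other sign for ITGA2B 0.90, MVD -0.49 and RPLP2 -0.17, so the effect was nearer 0 or opposite in TRB cells. None of these EV calls was kept whichever EV library was left out. The receptors and HR did not pass for T3 in EV cells but differed between the lines, with HR 1.697, THRB 1.41 and THRA -1.23. In TRB cells reads from the vector and the cell's own THRB cannot be told apart.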

How the results depend on the processing

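The count of genes called for T3 in EV cells was 660 with the design as fixed. DESeq2 called 407 and counts thinned to 4241863 per library 430, and leaving out 1 EV library at a time gave 275 to 669, lowest without EV vehicle replicate 3 and 341 and 396 without EV T3 replicate 2 and EV vehicle replicate 1. Among protein-coding genes the count of 627 became 389 with DESeq2, 410 after thinning and 259 to 636 with libraries left out. The causes were not tested. With libraries left out or counts thinned, fewer libraries or counts enter by construction. DESeq2 was given the same genes, libraries and counts. Of the calls by DESeq2, 392 were among the 660 with the same direction, and of those after thinning 363. RLE normalization, no filter on low counts, a fit of the EV libraries alone, protein-coding genes only, the GC trend removed and the length trend removed (added after seeing the data) gave between 535 and 705. The genes called for T3 in TRB cells and the genes called for the difference of T3 effects stayed in number within 1.5 times under the alternatives run, at 5592 to 6042 and 2910 to 3553 with libraries left out. Over the 109 named genes 1392 settings kept direction and side of the threshold, 228 kept direction but missed the threshold, and none reversed.

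With the replicate number as a block 647 genes were called in EV cells (615 of them protein-coding), with 6437 genes called for T3 in TRB cells and 3493 genes called for the difference of T3 effects. Deviations of EV libraries with the same number correlated at -0.0153, 0.0499 and -0.0101, and those with different numbers at -0.0307 to 0.0381. EV vehicle replicates 1 and 3 correlated best with another number. All of these correlations were small, so they cannot show whether the numbers pair the libraries.

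Depth limits low genes most: between 1 and 10 CPM the median SE of a log2 fold change was 0.22 and 1.86% of protein-coding genes were called, with a median change of 1.74-fold.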

Other observations

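Other protein-coding genes that rose by 1.5-fold or more and kept their call whichever EV library was left out were looked at after their values were seen. The glycoprotein hormone gene STC1 went from 17.7 ± 1.35 to 33.6 ± 1.27 CPM (SD, n = 3) and the B cell lectin gene CD22 from 5.19 ± 1.02 to 8.79 ± 0.374 CPM. Their log2 fold changes were 0.94 and 0.80 (edgeR adjusted p = 5.00e-11 and 7.68e-04). The focal adhesion protein gene TNS4 (1.05), the chloride channel family gene CLIC5 (0.88), the collagen prolyl hydroxylase gene P3H2 (0.80), the prostacyclin synthase gene PTGIS (0.72) and the GABA receptor subunit gene GABBR2 (0.73) were also higher.

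Kept falls not yet described were also chosen after their values were seen. LCN2 (lipocalin 2) was at -0.25, the elastase inhibitor gene PI3 at -0.34, the amino acid transporter gene SLC6A14 at -0.34 and the protease inhibitor gene A2M at -0.32. LCN2 read 154, 138 and 137 CPM with vehicle and 122, 115 and 120 CPM with T3, and the groups were separate (edgeR adjusted p = 1.79e-04). ANXA2, S100A11 and AHNAK, genes of membrane and cytoskeleton proteins expressed at high level, had log2 fold changes of -0.17, -0.24 and -0.23.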
